A study of Macaca mulatta with 10 samples.

Results

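Interferon-induced genes and the factors that regulate them were followed through the differentiation of a rhesus macaque embryonic stem (ES) cell line. The members were chosen by symbol, as genes whose symbol starts with IFI, OAS, GBP, IRF, STAT, TRIM or ISG, together with MX1, MX2, CXCL10 and RSAD2. The arrays held 80 such genes among 13191 named genes, read by 154 of the 22802 probe sets that were assigned to 1 gene. They comprised 26 genes of the interferon-induced kind, 8 of the IRF prefix, 5 STAT genes and 41 of the TRIM prefix, and 38 of the 80 had 1 probe set. RSAD2 was not analysed here. Some members share only a prefix with their family: IRF2BP1 encodes a partner of IRF2, and ISG20L2 and IFITM10 are relatives of interferon-induced genes.

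The cells were ORMES6, a single ES line, on Affymetrix arrays, in 5 groups of 2 arrays. The control group was undifferentiated ORMES6 (ES), grown on mouse embryonic fibroblast feeders with basic fibroblast growth factor. Differentiated cells had been co-cultured with hESdF, fibroblast-like cells derived from human ES cells, to induce foci of hepatic cells. They were taken at in vitro differentiation stage 2 (IVDS2) and stage 3 (IVDS3), and at stage 2 also separately from the central foci of the colonies (IVDS2-C, here the centre) and from the area around them (IVDS2-P, the periphery). The question the study put to these groups was whether hepatic differentiation depends on position in the colony. The labels give no treatment with an interferon or a virus, do not say whether feeder or hESdF cells were removed before RNA was isolated, and do not say whether the repeats were separate cultures. The p-values therefore measure the spread between these samples, which may be technical.

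Interferons are secreted proteins that cells release on sensing foreign nucleic acid. They bind receptors on the same or neighbouring cells, receptor-bound kinases phosphorylate STAT proteins, and these enter the nucleus and switch on a large set of antiviral genes. Pluripotent stem cells are known for a weak response to interferon and for expressing some interferon-stimulated genes, IFITM1 among them, without it. The ability to respond is gained on differentiation.

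Every value below is a log2 expression value that the authors had centred, probe set by probe set, on the median of the 10 arrays. A value of 0 is thus the middle array of that gene, and values of different genes cannot be ranked against each other as levels. Differences are log2 fold changes with their standard error (SE), from 1 limma fit to all 10 arrays, so that each gene has 1 spread for all its comparisons. A gene was called, and is said to have risen or fallen, at a Benjamini-Hochberg adjusted p under 0.05 over the 13191 genes. The per-array median over all probe sets lay between -0.04 and 0.05. The ES arrays differed most from each other (SD of the difference between the repeats over all probe sets 0.403, against 0.245 to 0.293 in the other groups). The centre arrays differed widely from each other for the interferon-induced genes, and some results on the centre are also given without one of them.

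Most of the interferon-induced genes rose at IVDS3. Against ES cells, 22 of the 26 rose and 0 fell, with a median log2 fold change of 3.48, while the median of all genes was -0.13. Over all 80 members 37 rose and 9 fell, 57.5% of them, against 49.7% of all genes called in that comparison (21.1% higher and 28.6% lower). By family, 4 of the 8 IRF genes rose, 2 of the 5 STAT genes rose and 1 fell, and 9 of the 41 TRIM genes rose and 8 fell. The TRIM share of 41.5% called lay below the background of 49.7%. These are bulk samples, in which more cells of a type and more RNA per cell cannot be told apart.

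**Figure D1:**
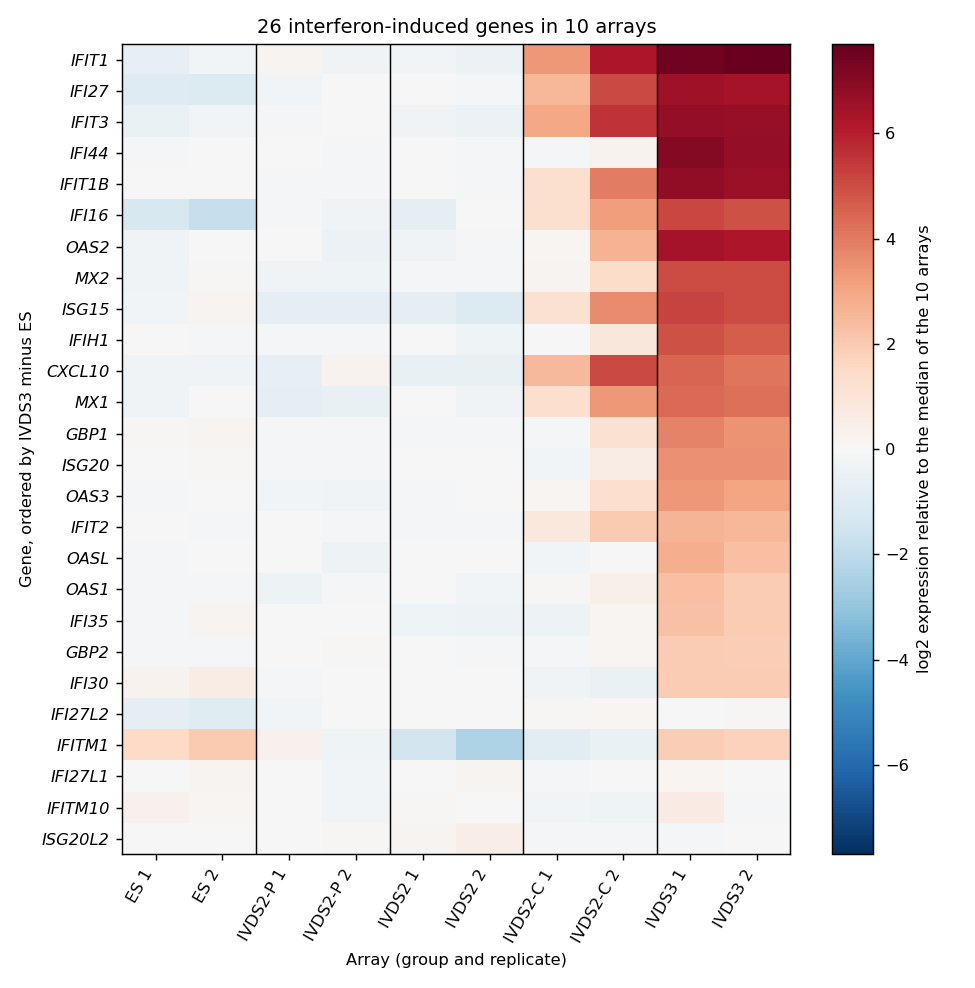
Log2 expression of the 26 interferon-induced genes (vertical axis, ordered by the IVDS3 minus ES difference) in the 10 arrays (horizontal axis, by group and replicate), each gene centred on its median; red is higher and blue is lower. The 22 genes that rose at IVDS3 are red in both IVDS3 arrays except IFI27L2, and some of them are red in the centre arrays with the second array stronger. IFITM1 is blue at IVDS2 and in the centre, and its periphery arrays lie on either side of the middle colour.

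The genes fell into sets by where else they were raised. IFIT1, whose protein binds viral RNA that lacks the host's cap methylation, read -0.65 and -0.23 in ES cells, -0.22 and -0.43 at IVDS2, 0.22 and -0.29 in the periphery, 3.36 and 6.25 in the centre and 7.43 and 7.61 at IVDS3. The centre arrays lay between the other groups and IVDS3, without overlap, and differed from each other by more than any other pair of repeats of that gene. The log2 fold change against ES cells was 5.24 ± 0.71 in the centre (limma adjusted p = 0.000908) and 7.96 ± 0.71 at IVDS3 (adjusted p = 3.05e-05), or 37.8-fold and 249-fold. IFI44, a cytoplasmic protein of the antiviral response, read -0.12 and -0.00 in ES cells, 0.01 and -0.07 at IVDS2, -0.05 and -0.15 in the periphery, -0.07 and 0.26 in the centre and 7.10 and 6.79 at IVDS3. The IVDS3 pair stood alone, with the other arrays between -0.15 and 0.26. Its log2 fold change was 7.00 ± 0.15 at IVDS3, a size near that of IFIT1, and 0.15 ± 0.15 in the centre (95% confidence interval -0.18 to 0.49).

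In the centre of the stage 2 colonies, 10 of the 26 induced genes rose against ES cells, 2 fell and 14 were not called. In that comparison 30.1% of all genes were called, 13.7% higher and 16.5% lower. The rises were those of CXCL10, IFI16, IFI27, IFI27L2, IFIT1, IFIT1B, IFIT2, IFIT3, ISG15 and MX1, and the median of the 26 was 0.61. CXCL10, a chemokine that attracts T cells, had a log2 fold change of 4.05 ± 0.66. IFI16, a sensor of DNA, had 3.75 ± 0.54, and IFI27, a small mitochondrial and nuclear membrane protein, had 4.85 ± 0.61. ISG15, a ubiquitin-like modifier, had 2.41 ± 0.60, and MX1, a GTPase that blocks viral ribonucleoproteins, had 2.48 ± 0.51. The genes that fell were IFITM1 and IFI30, a lysosomal thiol reductase of antigen processing (-0.79 ± 0.14).

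The repeats of the centre differed for these genes. Replicate 2 was higher than replicate 1 in 23 of the 26 induced genes, by a median of 0.98, and by more than 1 in 13 of them (50%), against 106 of all 13191 genes (0.804%). In the other groups 0 of the 26 differed by more than 1 between repeats in either direction. CXCL10 read 2.50 in replicate 1 of the centre and 5.08 in replicate 2, the latter above both IVDS3 arrays at 4.46 and 4.14. OAS2, which makes the 2'-5' oligoadenylates that activate RNase L, read 0.17 in replicate 1, near the ES arrays at -0.27 and 0.00, and 2.65 in replicate 2. The markers of pluripotent cells were lower in replicate 2 of the centre (6 of 7 genes, median difference -0.78), and the 5 measured markers of stratified epithelium were higher in it by a median of 0.31. The part of cell composition in the gap between the repeats was not tested.

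The calls in the centre were made with this gap in the SE. With 1 centre array left out, the SE comes from the other groups and no longer holds the gap. Only sizes are therefore given for the induced genes against ES cells. Of the genes not called, GBP1, IFIH1, ISG20, MX2, OAS2 and OAS3 read -0.09, 0.02, -0.20, 0.20, 0.17 and 0.13 in replicate 1. In replicate 2 they read 1.15, 0.84, 0.56, 1.42, 2.65 and 1.28. With replicate 2 left out, sizes were smaller: the log2 fold change was then 3.80 for IFIT1, 1.18 for ISG15, 1.45 for MX1, 1.28 for IFIT1B and 0.83 for IFIT2. Fitted on only the ES and centre arrays, 7 of the 26 rose (8.56% of all genes), and IFIT1B, IFIT2 and ISG15 were no longer called. IFIT1B also lost its call without either ES array, and ISG15 without replicate 1 of the ES cells.

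**Figure D2:**
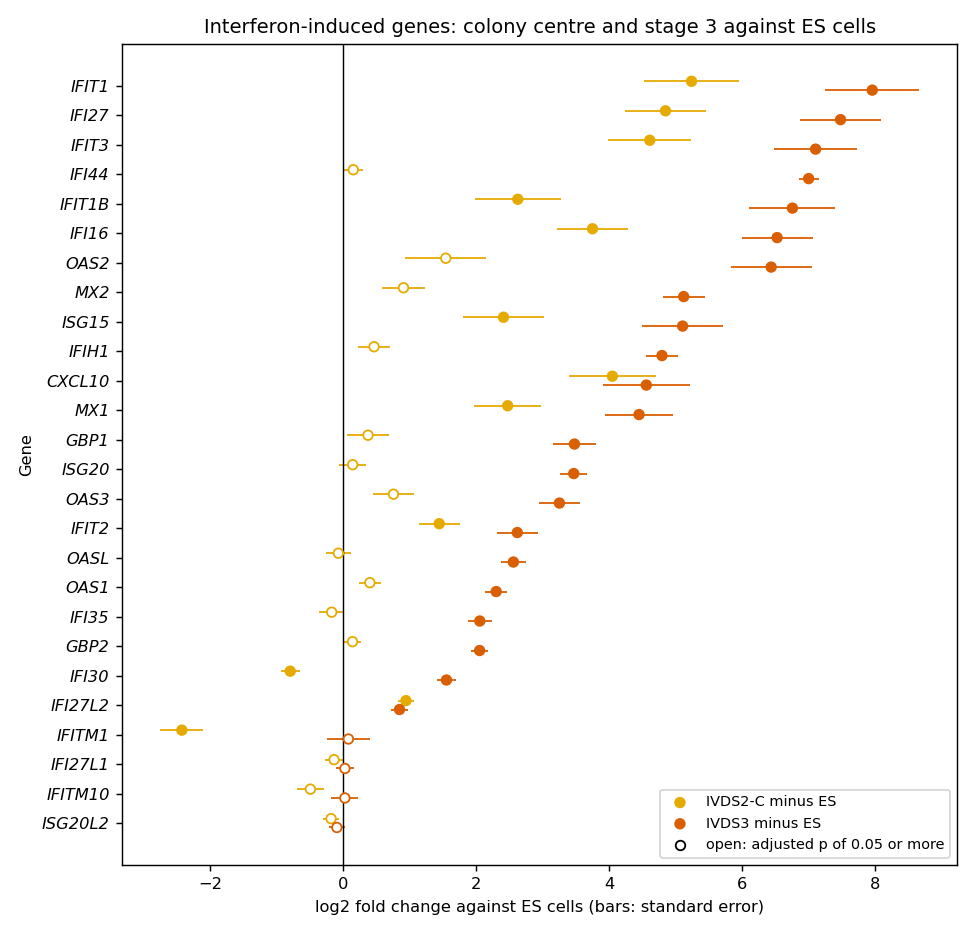
Log2 fold change against ES cells (horizontal axis, bars are the SE of the fit) of the 26 interferon-induced genes in the centre of stage 2 colonies (yellow) and at IVDS3 (orange). Filled points were called; 11 genes, IFI44 and OAS2 among them, have an open point for the centre and a filled point to the right of 0 for IVDS3.

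A further 11 induced genes rose at IVDS3 and were not called in any stage 2 group as means over their probe sets. The share of all genes with this pattern was not counted. Since the set rests on the call threshold, its genes may also have changed in the centre, where OAS2 had 1.55 ± 0.61. The 11 were GBP1, GBP2, IFI35, IFI44, IFIH1, ISG20, MX2, OAS1, OAS2, OAS3 and OASL. GBP1 and GBP2, GTPases that attack the vacuoles of intracellular pathogens, had log2 fold changes at IVDS3 of 3.48 ± 0.32 and 2.05 ± 0.13. The 2'-5' oligoadenylate synthetase family ranged from 2.30 ± 0.17 for OAS1 to 6.44 ± 0.61 for OAS2, with OAS3 at 3.25 ± 0.30 and OASL at 2.56 ± 0.19. In the centre the same 4 genes had 0.40 ± 0.17, 1.55 ± 0.61, 0.76 ± 0.30 and -0.07 ± 0.19, none of them called. ISG20, an exonuclease of single-stranded RNA, had 3.47 ± 0.21 at IVDS3 and 0.15 ± 0.21 in the centre. MX2, the relative of MX1 that acts against retroviruses, had 5.12 ± 0.32 at IVDS3 and 0.91 ± 0.32 in the centre (adjusted p = 0.058).

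The IVDS3 arrays were also compared with the centre arrays directly, a comparison added after the values were seen. Of the 26 genes 21 were higher at IVDS3 and 0 lower, with a median difference of 2.50, where 21.9% of all genes were called (10.9% higher and 10.9% lower). The largest differences were those of IFI44 (6.85 ± 0.15), OAS2 (4.89 ± 0.61), IFIH1 (4.33 ± 0.24) and MX2 (4.21 ± 0.32). CXCL10 rose in both groups against ES cells and was not called between them: the difference was 0.51 ± 0.66, with a 95% confidence interval of -0.97 to 2.00. For IFI27, IFIT1, IFIT2, IFIT3, ISG15 and MX1 the call between IVDS3 and the centre was lost without either IVDS3 array. Without replicate 1 of the centre the differences of these 6 genes and of IFI16 were smaller, from 0.55 for IFIT2 to 1.78 for IFI16, with IFIT1 at 1.27 in place of 2.72.

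Few of these genes were called at IVDS2 or in the periphery. The SE of a gene is shared by all comparisons, so the gap between the centre arrays enters it here too. At IVDS2, 1 of the 26 rose and 1 fell, where 12.7% of all genes were called (6.5% higher, 6.23% lower). In the periphery it was again 1 and 1, where 11% were called (6.31% higher, 4.67% lower). In both groups the riser was IFI27L2 and the faller IFITM1. The largest difference not called was that of IFI16, at 1.16 ± 0.54 and 1.33 ± 0.54. IFIT1 differed from ES cells by 0.12 ± 0.71 at IVDS2 and by 0.41 ± 0.71 in the periphery, with confidence intervals of -1.49 to 1.72 and -1.20 to 2.01. At IVDS3 against IVDS2, 22 of the 26 were higher and 1 was lower (ISG20L2, -0.43 ± 0.12), where 39.7% of all genes were called (17.6% higher and 22.2% lower). The ISG20L2 call was lost without replicate 2 of IVDS2 or either IVDS3 array. All comparisons against ES cells share the ES arrays.

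Between centre and periphery, the comparison the question about position turns on, 9 of the 26 induced genes were higher in the centre and 0 lower, where 9.59% of all genes were called (5.64% higher, 3.95% lower). They were the 10 risers of the centre without IFI27L2. The differences ranged from 1.47 ± 0.31 for IFIT2 to 4.84 ± 0.71 for IFIT1. That of IFIT2 is a mean over 6 probe sets, of which 2 rose in the centre against ES cells. For each of the 9 both centre arrays lay above both periphery arrays, which adds no test, since the 9 were chosen by their call here. For IFIT2 and IFIT3 among them, both IVDS2 arrays lay below the arrays of both centre and periphery. The calls depended on the samples fitted. Leaving out 1 array of a group leaves it with 1, and the SE then comes from the other groups. With only the 4 arrays of centre and periphery in the fit, limma called 0 of the 26, with 12 at an unadjusted p under 0.05, where 3.34% of all genes were higher in the centre. The number called was 2 (IFIT1 and IFIT3) without replicate 1 of the periphery (2.05% of all genes higher), 5 without replicate 2 of the periphery (3.25%), 15 without replicate 1 of the centre (6.22%) and 8 without replicate 2 of the centre (2.4%). In the last case IFI16 lost its call, with a difference of 1.42, and IFIT2, IFIT1B, ISG15 and MX1 had 0.85, 1.31, 1.90 and 1.95. IFIT1B was called only while all ES, IVDS2, periphery and IVDS3 arrays were in the fit.

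Members that lie side by side in the genome did not all move together. In the RefSeq annotation of the assembly T2T-MMU8v2.0, IFIT2, IFIT3, IFIT1B and IFIT1 are consecutive protein-coding genes, and all 4 rose in the centre and at IVDS3. MX1 and MX2 are also neighbours: MX1 rose in the centre. MX2 was not called there, but its 2 probe sets differed in the same direction, by 0.76 and 1.06. IFI27 lies between IFI27L1 and IFI27L2, and the 3 had different profiles. IFI27 read -1.01 and -1.05 in ES cells, 0.00 and -0.12 at IVDS2, -0.21 and -0.00 in the periphery, 2.54 and 5.10 in the centre and 6.51 and 6.40 at IVDS3. IFI27L2 read -0.69 and -0.92 in ES cells, -0.04 and 0.01 at IVDS2, -0.23 and -0.01 in the periphery, 0.11 and 0.16 in the centre and 0.01 and 0.08 at IVDS3, and every differentiated array lay above both ES arrays. Its log2 fold changes of 0.80 ± 0.12 at IVDS2, 0.69 ± 0.12 in the periphery, 0.95 ± 0.12 in the centre and 0.85 ± 0.12 at IVDS3 did not follow those of IFI27, and the periphery call was lost without replicate 2 of the periphery. IFI27L1 was not called in any comparison and ranged over 0.40 between its highest and lowest array.

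Several genes were read by probe sets that disagreed. At IVDS3, 2 of the 6 probe sets of IFIT2 rose, with log2 fold changes over the 6 from 0.03 to 8.44, so the gene mean of 2.62 understates the probe sets that moved. GBP1 had 5 of 6 probe sets higher and 1 lower, from -1.42 to 5.38. The probe set that fell was also lower in the centre (-1.42), and 1 of the 6 fell at IVDS2, while the gene mean was not called in either group. All 5 probe sets of OAS1 rose at IVDS3, from 0.69 to 4.14. In the centre 2 of the 5 rose, by 1.00 and 1.25, and the gene mean was not called. Both probe sets of IFI44 rose, by 6.95 and 7.06, and both of OAS2, by 6.43 and 6.44. IFIT, OAS, GBP and TRIM genes have close relatives, and whether their probe sets read each other's transcripts was not tested.

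IFITM1 went the other way, and 2 TRIM genes had its profile. IFITM1, a membrane protein that blocks fusion of enveloped viruses, read 1.52 and 1.99 in ES cells, -1.41 and -2.40 at IVDS2, 0.33 and -0.33 in the periphery, -0.82 and -0.52 in the centre and 1.90 and 1.77 at IVDS3. The ES and IVDS3 arrays were high and overlapped, and the stage 2 arrays were all below them. The log2 fold change was -3.66 ± 0.33 at IVDS2 (limma adjusted p = 0.00037), -2.42 ± 0.33 in the centre, -1.75 ± 0.33 in the periphery and 0.08 ± 0.33 at IVDS3, the last with a confidence interval of -0.66 to 0.82. The periphery call was lost without replicate 2 of the ES cells or replicate 2 of the periphery. Both probe sets of IFITM1 fell at IVDS2, by 3.84 and 3.48. Both IVDS2 arrays lay below all arrays of centre and periphery. That arrangement held for 7 of the 80 members (8.75%) and for 8.55% of all genes. The 7 were GBP1, IFIT2, IFIT3, IFITM1, IRF2, TRIM5 and TRIML1, with 4 of the 26 induced genes (15.4%) among them.

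TRIM22, a restriction factor of retroviruses and influenza virus, read 1.00 and 0.99 in ES cells, -0.50 and -1.22 at IVDS2, 0.06 and -0.37 in the periphery, -0.93 and -0.09 in the centre and 1.13 and 1.06 at IVDS3. TRIM5, which recognises the incoming retroviral capsid and was found as a barrier to infection in rhesus cells, read 1.00 and 0.33 in ES cells, -0.55 and -0.63 at IVDS2, 0.18 and -0.36 in the periphery, -0.45 and -0.13 in the centre and 0.61 and 0.58 at IVDS3. As for IFITM1, the ES and IVDS3 arrays of both genes lay above every stage 2 array. At IVDS2 the log2 fold changes were -1.86 ± 0.30 and -1.26 ± 0.24, in the centre -1.51 ± 0.30 and -0.96 ± 0.24, and at IVDS3 0.10 ± 0.30 and -0.07 ± 0.24. Against IVDS2 both were higher at IVDS3, by 1.96 ± 0.30 and 1.19 ± 0.24. Over the 10 arrays, which include the group differences, Pearson's r with IFITM1 was 0.967 for TRIM22 and 0.911 for TRIM5, the highest among the members. The next was TRIM67 at 0.826. TRIM22 and TRIM5 are adjacent genes in the RefSeq annotation.

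The profile of these genes rested on part of their probe sets. At IVDS2, 1 of the 2 TRIM22 probe sets fell by 3.40, while the other differed by -0.32 and was not called. Of the 4 TRIM5 probe sets, 3 fell, and the 4 ranged from -1.69 to -0.33. The TRIM5 call at IVDS2 was lost without replicate 2 of IVDS2, and that in the centre without replicate 1 of the ES cells or replicate 1 of the centre; without the ES array the centre value was -0.63, from -0.96. In the periphery TRIM22 was called at -1.15 ± 0.30, a call lost without any one of the ES, periphery or IVDS3 arrays, and TRIM5 at -0.76 ± 0.24 was not called.

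**Figure D3:**
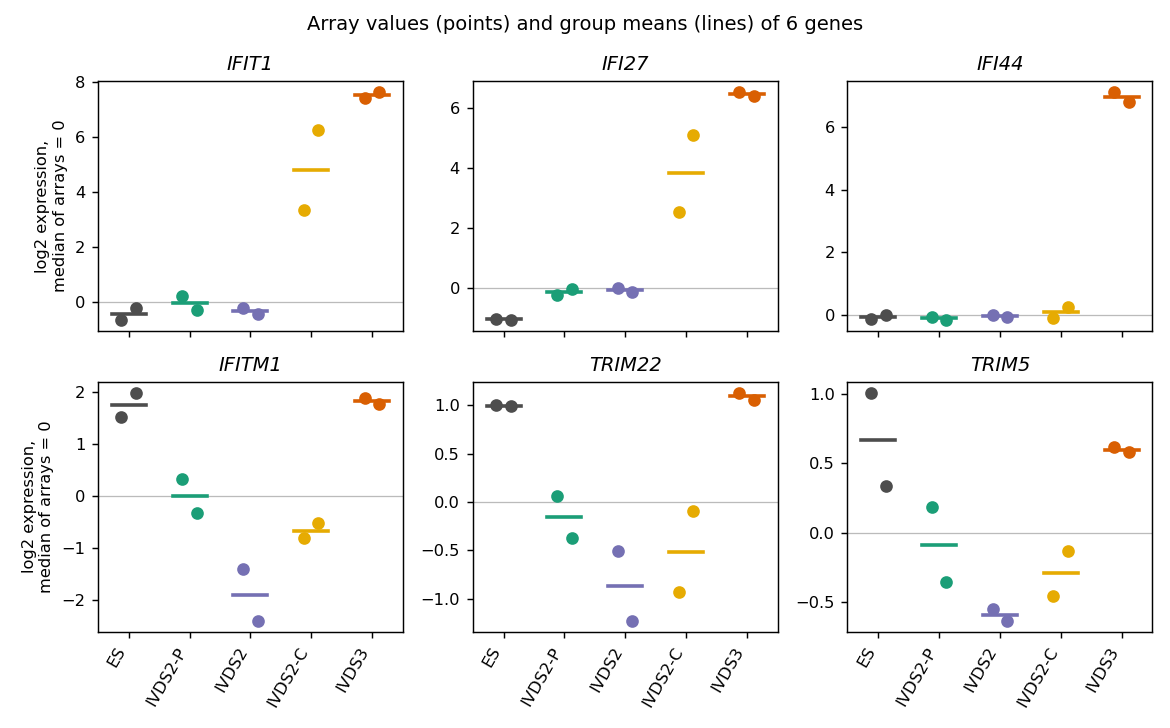
Log2 expression of 6 genes in each array (points) with the mean of each group (lines); each panel has its own vertical axis, centred on the median of the 10 arrays. IFIT1 and IFI27 are raised in the centre and at IVDS3 and IFI44 at IVDS3, while IFITM1, TRIM22 and TRIM5 are high in ES cells and at IVDS3 and lower in the 3 stage 2 groups.

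Among the IRF genes, the transcription factors that bind interferon-stimulated promoters, IRF1 and IRF8 rose in the centre and at IVDS3. In the centre 2 of the 8 IRF genes were called (25%, against 30.1% of all genes) and at IVDS3 4 (50%, against 49.7%), shares near those of all genes. IRF1, an activator of antiviral and antigen-presentation genes, read -0.46 and -0.50 in ES cells, -0.05 and 0.05 at IVDS2, -0.13 and -0.31 in the periphery, 0.59 and 1.56 in the centre and 1.03 and 1.22 at IVDS3. Its log2 fold change was 1.55 ± 0.26 in the centre and 1.60 ± 0.26 at IVDS3, and the difference between those groups was 0.05 ± 0.26 (95% confidence interval -0.53 to 0.63). IRF8, best known in myeloid cells, read -0.33 and -0.07 in ES cells, 0.06 and 0.00 at IVDS2, -0.20 and -0.16 in the periphery, 0.61 and 1.05 in the centre and 0.71 and 0.72 at IVDS3. Its log2 fold change was 1.03 ± 0.15 in the centre and 0.91 ± 0.15 at IVDS3, with a difference of -0.12 ± 0.15 (interval -0.46 to 0.23). All 3 of its probe sets rose in the centre, by 0.81, 1.07 and 1.20. At IVDS3 1 of the 3 rose, by 2.70, while the others differed by 0.04 and 0.00 and were not called, so the gene means of the centre and IVDS3 do not rest on the same probe sets. Both genes were higher in the centre than in the periphery, IRF1 by 1.29 ± 0.26 and IRF8 by 1.01 ± 0.15. With only the 4 arrays of those groups fitted, IRF8 was still called and IRF1 was not. The IRF1 call was also lost without either periphery array, and without replicate 2 of the centre its difference was 0.80.

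IRF7 and IRF2 rose at IVDS3 and were not called at stage 2. IRF7, which drives the late wave of interferon production and is itself interferon-induced, read -0.11 and 0.15 in ES cells, -0.08 and -0.10 at IVDS2, -0.18 and -0.17 in the periphery, -0.01 and 0.55 in the centre and 1.12 and 1.48 at IVDS3. Its log2 fold change was 1.28 ± 0.19 at IVDS3 and 0.25 ± 0.19 in the centre, and it came from 1 of its 2 probe sets (2.81, against -0.25 for the other). IRF2, a partner and antagonist of IRF1, had 1.02 ± 0.19 at IVDS3. IRF3, the factor that switches on the first interferon genes and is present in resting cells, was not called in any comparison (-0.05 ± 0.11 at IVDS3, interval -0.31 to 0.21). IRF4, IRF5 and IRF2BP1 were not called in any comparison either, with -0.27 ± 0.15, -0.30 ± 0.11 and 0.20 ± 0.13 at IVDS3.

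Of the STAT genes, which carry the signal of cytokine receptors to the nucleus, 0 were called at IVDS2, in the centre or in the periphery, by limma and also at an unadjusted p under 0.05. There were 5 of them measured, and the shares of all genes called in those comparisons were 12.7%, 30.1% and 11%. At IVDS3 2 rose and 1 fell (60%, against 49.7% of all genes). STAT2, which carries the type I interferon signal, read -0.31 and 0.07 in ES cells, 0.04 and -0.10 at IVDS2, -0.04 and -0.16 in the periphery, -0.08 and 0.07 in the centre and 0.70 and 0.59 at IVDS3. Both IVDS3 arrays lay above all the others, and the log2 fold change there was 0.76 ± 0.14 (limma adjusted p = 0.00212). STAT6, which serves interleukin 4 and 13 receptors, read 0.06 and 0.02 in ES cells, -0.09 and -0.39 at IVDS2, -0.24 and -0.22 in the periphery, 0.02 and 0.46 in the centre and 1.86 and 1.83 at IVDS3 and had 1.81 ± 0.16 at IVDS3, the largest difference of a STAT or IRF gene in any comparison against ES cells. STAT3 was not called against ES cells (0.53 ± 0.23) and was higher at IVDS3 than at IVDS2 by 0.90 ± 0.23, a call lost without replicate 2 of IVDS2 or replicate 1 of IVDS3. STAT5B fell at IVDS3 (-0.54 ± 0.16), a call lost without replicate 2 of the ES cells, where the value was -0.35, or replicate 2 of IVDS3. STAT5A, its neighbour in the genome between STAT5B and STAT3, was not called (-0.32 ± 0.23).

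**Figure D4:**
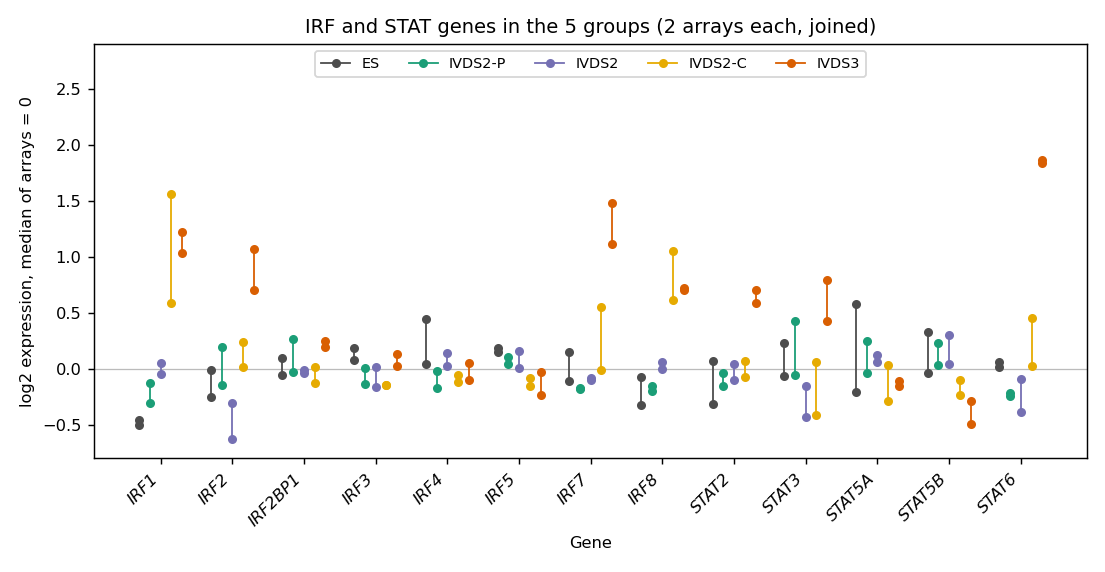
Log2 expression of the 8 IRF-prefix and 5 STAT genes (horizontal axis) in the 5 groups, each gene centred on its median over the arrays; points are arrays and a line joins the 2 arrays of a group. IRF1 and IRF8 are raised in the centre (yellow) and at IVDS3 (orange), and IRF2, IRF7, STAT2 and STAT6 at IVDS3.

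Many TRIM genes encode ubiquitin ligases. Some of the family restrict viruses or tune the sensing of viral RNA, while others serve muscle, neurons or chromatin. The TRIM genes moved in both directions. Of the 41, 17 were called at IVDS3 (9 higher and 8 lower, 41.5%, against 49.7% of all genes) and 11 in the centre (5 higher and 6 lower, 26.8%, against 30.1%). Neither share was above that of all genes. The largest rise was that of TRIM38, a regulator of innate immune signalling, which read -1.10 and -1.05 in ES cells, 0.01 and -0.28 at IVDS2, -0.01 and -0.29 in the periphery, 0.07 and 0.52 in the centre and 3.26 and 3.35 at IVDS3. Every differentiated array lay above both ES arrays, and the IVDS3 pair stood apart from the rest. Its log2 fold change was 4.38 ± 0.17 at IVDS3, 1.37 ± 0.17 in the centre, 0.94 ± 0.17 at IVDS2 and 0.92 ± 0.17 in the periphery. The call at IVDS2 was lost without replicate 1 of IVDS2, and that in the periphery without replicate 2 of the ES cells or replicate 1 of the periphery.

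The second largest rise was in TRIM29, which is expressed in stratified epithelia and read -0.93 and -0.61 in ES cells, 0.16 and -0.16 at IVDS2, -0.91 and -0.79 in the periphery, 0.91 and 2.01 in the centre and 3.26 and 3.54 at IVDS3. It had 4.17 ± 0.31 at IVDS3 and 2.22 ± 0.31 in the centre, and it was higher in the centre than in the periphery by 2.31 ± 0.31, a call that held with only those 4 arrays fitted. TRIM16 followed at IVDS3 with 2.67 ± 0.25. TRIM21, an interferon-induced receptor for antibody on incoming virus, had 1.39 ± 0.15 there, and TRIM56, which acts in the sensing of nucleic acid, had 0.95 ± 0.17. TRIM56 was also higher in the centre than in ES cells, at 0.73 ± 0.17, a call lost with only those 4 arrays fitted, without replicate 1 of the ES cells or without replicate 2 of the centre (then 0.48).

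Of the TRIM genes that are themselves known to be interferon-induced, 7 were measured. At IVDS3 3 of them rose against ES cells (TRIM38, TRIM21 and TRIM56), 0 fell, and TRIM5, TRIM14, TRIM22 and TRIM25 were not called, so 42.9% were called where 49.7% of all genes were. In the centre 2 rose (TRIM38 and TRIM56) and 2 fell (TRIM22 and TRIM5), 57.1% against 30.1% of all genes. TRIM25, the ubiquitin ligase of the RIG-I pathway, had -0.07 ± 0.14 at IVDS3 (interval -0.39 to 0.25), and TRIM14 had 0.05 ± 0.11 (interval -0.20 to 0.31).

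TRIML2 and TRIM55 had their highest group mean in the centre. TRIML2 read -0.75 and -0.53 in ES cells, 0.67 and -0.46 at IVDS2, -0.73 and -0.83 in the periphery, 1.52 and 1.51 in the centre and 0.53 and 0.46 at IVDS3 and was lower at IVDS3 than in the centre, with a log2 fold change between them of -1.02 ± 0.29, a call lost without any one of the centre, periphery or IVDS3 arrays. Its rise against ES cells was 2.16 ± 0.29 in the centre and 1.14 ± 0.29 at IVDS3, the latter lost without replicate 1 of the ES cells or replicate 1 of IVDS3. TRIM55, a protein of the sarcomere, had 1.77 ± 0.41 in the centre and 0.84 ± 0.41 at IVDS3, and the arrays of these groups overlapped. Its centre call was lost without replicate 2 of the ES cells, and without replicate 2 of the centre the value was 1.05.

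The falls included TRIM28, the corepressor that silences endogenous retroviruses in pluripotent cells. It read 0.03 and 0.29 in ES cells, 0.07 and 0.00 at IVDS2, -0.00 and 0.10 in the periphery, -0.35 and -0.52 in the centre and -0.98 and -0.82 at IVDS3, with the IVDS3 arrays below all others, and its log2 fold change was -1.06 ± 0.13 at IVDS3 and -0.59 ± 0.13 in the centre, the latter lost without replicate 2 of the centre or with only those 4 arrays fitted. TRIM59 fell the furthest at IVDS3 (-2.07 ± 0.27), with both of its probe sets. TRIM54, a protein of the sarcomere, fell in every differentiated group, from -1.27 ± 0.11 at IVDS3 to -1.07 ± 0.11 in the periphery. TRIM37, a centrosomal and chromatin-bound ligase, had -0.79 ± 0.14 at IVDS3, which came from 1 of its 2 probe sets.

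**Figure D5:**
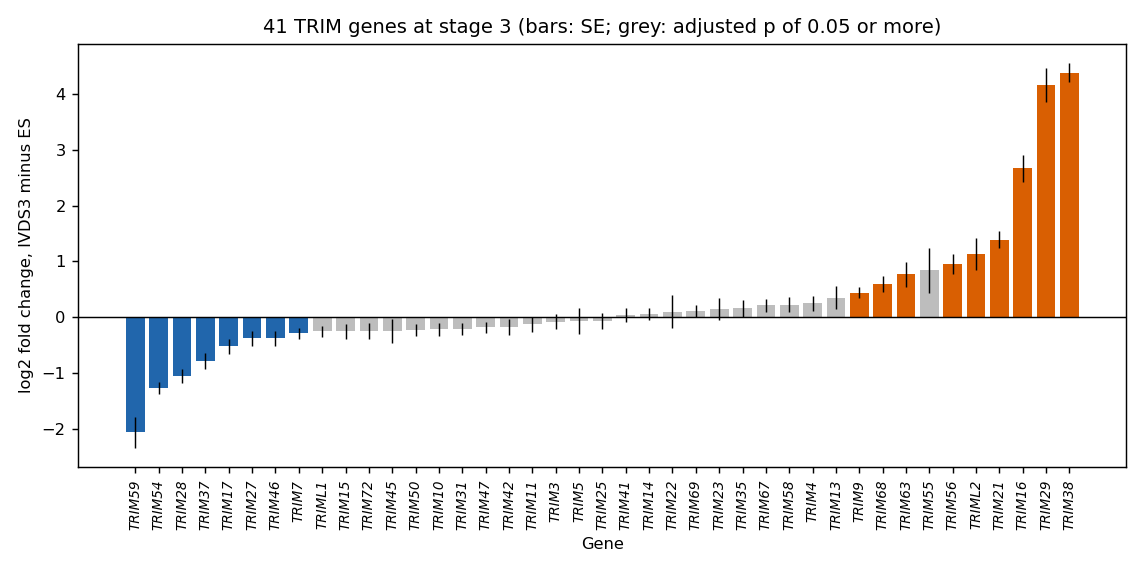
Log2 fold change of the 41 TRIM-prefix genes at IVDS3 against ES cells (vertical axis), ordered by size, with bars for the SE of the fit; orange bars rose, blue bars fell and grey bars were not called. TRIM38, TRIM29 and TRIM16 have the tallest bars, and TRIM59 fell by 2.07.

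The rest of the pathway was read from lists of its ligands, receptors, sensors, inhibitors and targets. Of the interferons, IFNL1, a type III interferon that acts on epithelial cells, was the 1 gene of 13 listed that was measured. It read -0.15 and 0.25 in ES cells, -0.24 and -0.05 at IVDS2, -0.26 and -0.22 in the periphery, 0.05 and 0.79 in the centre and 0.46 and 0.82 at IVDS3. Against ES cells it was not called at IVDS3 (0.59 ± 0.24, adjusted p = 0.0705) or in the centre (0.37 ± 0.24). Against IVDS2 it was higher at IVDS3 by 0.78 ± 0.24, a call lost without either IVDS2 array or replicate 2 of IVDS3. The type I and type II interferons were not analysed here.

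Of 5 receptors and kinases measured, 2 rose and 1 fell at IVDS3 (60%, against 49.7% of all genes). IL10RB, the shared chain of the type III interferon and interleukin 10 receptors, read -1.59 and -1.55 in ES cells, 0.01 and -0.01 at IVDS2, -0.40 and -0.42 in the periphery, 0.41 and 0.92 in the centre and 1.77 and 1.81 at IVDS3 and rose in every differentiated group, by 1.57 ± 0.15 at IVDS2, 1.16 ± 0.15 in the periphery, 2.23 ± 0.15 in the centre and 3.36 ± 0.15 at IVDS3. Its partner chain IFNLR1 was not called in any comparison against ES cells (-0.05 ± 0.15 in the centre, interval -0.38 to 0.28). JAK2, a kinase of the interferon gamma receptor, had 0.90 ± 0.19 at IVDS3. IFNAR2, a chain of the type I receptor, had -0.48 ± 0.13, a call lost without replicate 2 of the ES cells or replicate 1 of IVDS3. TYK2, the kinase of the type I and type III receptors, had 0.25 ± 0.13 and was not called.

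Among 14 sensors and adaptors, 4 rose and 1 fell at IVDS3, a share of 35.7% that lay below the 49.7% of all genes. RIGI, the cytoplasmic sensor of viral RNA ends, read -0.56 and 0.32 in ES cells, -0.32 and -0.51 at IVDS2, -0.34 and -0.48 in the periphery, 0.33 and 2.53 in the centre and 4.84 and 4.41 at IVDS3 and had 4.75 ± 0.58 at IVDS3 and 1.55 ± 0.58 in the centre (adjusted p = 0.0728), where its second array was again the high one. IFIH1, its relative among the members and the sensor of long double-stranded RNA, had 4.80 ± 0.24 at IVDS3. TLR3, the endosomal receptor for double-stranded RNA, had 3.19 ± 0.19, and STING1, the adaptor of cytoplasmic DNA sensing, had 2.43 ± 0.18. Neither TLR3 nor STING1 was called at stage 2. TBK1, the kinase that activates IRF3, had 0.37 ± 0.11, a call lost without either IVDS3 array, and the 1 that fell was TLR7 (-0.46 ± 0.11), a call lost without replicate 2 of IVDS3. MAVS, the adaptor that RIGI and IFIH1 signal through, was not called against ES cells (-0.15 ± 0.12, interval -0.43 to 0.13), nor was CGAS, the DNA sensor upstream of STING1 (-0.11 ± 0.24). DHX58, the third member of the RIGI family, had -0.28 ± 0.18 at IVDS3 and was not called there, and its rise at IVDS2 of 0.64 ± 0.18 did not hold with any single array of the ES, IVDS2 or centre groups left out.

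Of 5 inhibitors, 2 rose and 1 fell at IVDS3 (60%, against 49.7% of all genes). PIAS1, a SUMO ligase that restrains cytokine signalling, rose in all 4 groups, from 0.67 ± 0.15 at IVDS2 to 0.98 ± 0.15 in the periphery. The IVDS2 call was lost without replicate 2 of the ES cells or either IVDS2 array, and the periphery call without replicate 2 of the periphery. PTPN6, a phosphatase of cytokine signalling, rose at IVDS3 (1.04 ± 0.22), and PIAS3 fell there (-0.52 ± 0.16), a call lost without replicate 2 of the ES cells or either IVDS3 array. SOCS1 and SOCS3, the feedback inhibitors of JAK kinases that interferon itself induces, were not called in any comparison against ES cells, with -0.15 ± 0.14 and -0.16 ± 0.18 at IVDS3.

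Other interferon-induced effectors that do not carry the prefixes moved with the members. Of 31 measured, 24 rose and 1 fell at IVDS3 (80.6%, against 49.7% of all genes), with a median log2 fold change of 2.69. In the centre 11 rose and 1 fell (38.7%, against 30.1%), with a median of 0.30. The centre count of rises was 4 with only the ES and centre arrays fitted (8.56% of all genes). At IVDS2 2 rose and 1 fell (9.68%, against 12.7%), and in the periphery 1 rose and 0 fell (3.23%, against 11%). At IVDS3 the largest were CMPK2 (5.96 ± 0.51), a mitochondrial nucleotide kinase, HERC6 (5.72 ± 0.70), SAMD9L (5.35 ± 0.47), TDRD7 (4.77 ± 0.31), NMI (4.17 ± 0.48) and DDX60 (4.15 ± 0.35). The 1 that fell was CIITA, the activator of class II genes (-0.36 ± 0.12), a call lost without replicate 2 of the ES cells (then -0.23) or either IVDS3 array, and with each array centred on its median.

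The gap between the centre arrays was seen here too. HERC6 read 0.82 in replicate 1 of the centre and 3.69 in replicate 2, and its log2 fold change against ES cells of 2.40 ± 0.70 was 0.97 without replicate 2. UBE2L6, the conjugating enzyme for ISG15, did not rise with ISG15 in the centre. It read 0.61 and 0.23 in ES cells, -1.19 and -0.96 at IVDS2, 0.14 and -0.14 in the periphery, -1.78 and -1.35 in the centre and 2.11 and 1.93 at IVDS3, fell at IVDS2 (-1.49 ± 0.19) and in the centre (-1.98 ± 0.19), and rose at IVDS3 (1.60 ± 0.19).

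Of 7 measured genes of interferon-induced antigen presentation, 6 rose at IVDS3 (85.7%, against 49.7% of all genes) and 1 rose in the centre (14.3%, against 30.1%). PSMB8, a subunit of the immunoproteasome, had 3.29 ± 0.27 at IVDS3, TAP1, which carries peptides into the endoplasmic reticulum, had 3.04 ± 0.36, and B2M, the light chain of class I molecules, had 2.48 ± 0.32. The 1 that rose in the centre was TAPBP (0.82 ± 0.16), which loads peptides on class I molecules. Without replicate 2 of the centre its value was 0.55, and it was not called with only the ES and centre arrays fitted.

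The markers of other cell types moved as well, and their part in these results was not tested. Of the 8 leukocyte markers measured, 3 rose and 1 fell at IVDS3 (50%, against 49.7% of all genes). The defining pan-leukocyte gene PTPRC had -0.01 ± 0.14 and CD14 had 0.02 ± 0.14, neither called. The 3 that rose were LYZ (4.98 ± 0.26) and the macrophage markers CD68 (0.83 ± 0.15) and CSF1R (0.83 ± 0.17), and the 1 that fell was ITGAM (-2.14 ± 0.16). In the centre CD68 (0.56 ± 0.15) and LYZ (1.63 ± 0.26) rose and ITGAM (-1.98 ± 0.16) fell. Against the periphery, the centre was higher in CSF1R (0.76 ± 0.17) and LYZ (1.29 ± 0.26) and lower in ITGAM (-0.73 ± 0.16). The per-array median of the leukocyte list lay between 0.15 and 0.17 at IVDS3 and between -0.15 and 0.27 elsewhere. Of the 7 fibroblast markers 5 rose and 2 fell at IVDS3 (100%, against 49.7% of all genes), led by LUM (5.48 ± 0.21) and DCN (4.57 ± 0.16), with per-array medians of 1.50 and 1.64 at IVDS3, 0.16 and 0.63 in the centre and at most 0.06 elsewhere. COL1A1 and THY1 fell. All 5 markers of stratified epithelium rose at IVDS3, with per-array medians of 3.80 and 3.43 there, 0.77 and 0.91 in the centre and at most 0.11 elsewhere. Of the 7 pluripotency markers 6 fell and NANOG rose (1.48 ± 0.19), with per-array medians of -2.93 and -2.87 at IVDS3 and 1.72 and 1.94 in ES cells. Of the 5 endothelial markers 0 rose and 3 fell at IVDS3 (60%), with per-array medians of -0.09 and -0.20. The arrays also carry 373 probe sets for viral sequences. Their per-array median lay between -0.10 and 0.34, highest in replicate 2 of the ES cells, and was -0.03 and -0.10 at IVDS3. A median over many sequences cannot show a single virus, and centring would hide a virus present in all arrays. Whether virus was present was not tested.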

How the data were processed

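The deposited values are log2 expression values from RMA, per the labels, which name no version. No source used here gives the log base. It was taken as 2 because the widest probe set spanned 9.51 over the arrays; read as natural logs, that span would convert to 13.7 on the log2 scale. In the deposited table the median of each probe set over the 10 arrays was 0 within 5e-07, so it holds differences between arrays and no absolute levels. Of 44210 probe sets left after 84 manufacturer's controls, the platform annotation gave 22802 to a single gene, and probe sets of a gene were averaged (13191 genes, 7438 with 1 probe set). All 80 member symbols were found in the RefSeq gene table, which was used for names and gene order.

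One model with a term per group was fitted to the 10 arrays with limma 3.58.1 (R 4.3.3, lmFit and eBayes, two-sided, 5 residual and 3.94 prior degrees of freedom). It was also tested on simulated data, with spreads taken from this fit. Those data had the same spread in all groups and changes at IVDS3 only, so they do not cover the gap between the centre arrays. The p-values were adjusted by Benjamini-Hochberg over all genes within each of 6 comparisons and of 1 added after the values were seen, IVDS3 against the centre. Array number limits the precision. All members except TRIM genes could be named. Of the TRIM and pathway genes, the interferon-induced TRIM genes, the regulators and up to 6 of the largest called changes in each direction were named. The members and lists were chosen with earlier results of these data known. The alternatives were centring each array, fitting only the groups compared, a replicate block, the most variable probe set of a gene, a 2-fold minimum and leaving out each array. A search of promoters for interferon response motifs was not run, because promoter sequences were not used here.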

Additional observations from a re-analysis of the deposited data

Results flagged for a closer look

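Genes that were called in opposite directions against ES cells in separate groups, and whose difference between those groups was itself called by limma, were singled out. All of these comparisons share the ES arrays. IFI30, the lysosomal reductase, fell in the centre and rose at IVDS3, and IVDS3 exceeded the centre by 2.35. UBE2L6, the conjugating enzyme for ISG15, fell at IVDS2 and in the centre and rose at IVDS3, which exceeded IVDS2 by 3.09 and the centre by 3.59. PSMB10, a subunit of the immunoproteasome, fell at IVDS2 and rose at IVDS3, with a difference between those stages of 2.50. The PSMB10 call at IVDS2 was lost without replicate 2 of the ES cells, without either IVDS2 array and with its most variable probe set.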

How the results depend on the processing

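Over the 7 comparisons, members were called 181 times. Of these calls 119 held in all 14 alternatives that refit the data, 62 were lost in at least 1, and 0 changed direction. Leaving out each array in turn gave from 5 to 11 called members at IVDS2 (main count 6; 11 without either centre array), from 21 to 31 in the centre (25), from 2 to 11 in the periphery (5; 11 without replicate 1 and 3 without replicate 2 of the ES cells, 8 without either centre array, 3 and 2 without replicates 1 and 2 of the periphery), from 38 to 48 at IVDS3 (46), from 5 to 26 between centre and periphery (16; 26 without replicate 1 of the centre, 5 and 8 without replicates 1 and 2 of the periphery), from 40 to 48 between IVDS3 and IVDS2 (47) and from 23 to 37 between IVDS3 and the centre (36; 23 without replicate 1 of IVDS3). With only the 4 arrays compared, 3 members were called between centre and periphery, where 3.34% of all genes were higher and 1.32% lower. In the main fit those shares were 5.64% and 3.95%. The share of all genes called thus moved between fits too, and it is not given here for each array left out. The counts therefore describe the fits and are no result about the members. With a 2-fold minimum, 3 were called in the periphery (3.9% of all genes). A centre array enters the comparisons of IVDS2 and of the periphery with ES cells only through the shared spread. Those log2 fold changes are the same without it, and only their SE moved. A group left with 1 array adds nothing to that spread. The cause of the other moves was not tested, other than that fewer arrays were fitted.

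The arrays share replicate numbers, but same-numbered arrays did not deviate together in all 10 pairs of groups (correlations of -0.12 to 0.25, 5 of 10 over 0.1). Pairs with ES cells had -0.12 to 0.15, and pairs among the differentiated groups had 0.07 to 0.25, all positive. The numbers were not taken as pairs in the main fit, and whether same-numbered arrays share a source was not tested. With the replicate block the counts were 6 at IVDS2, 27 in the centre, 4 in the periphery, 47 at IVDS3, 16 between centre and periphery, 47 between IVDS3 and IVDS2 and 37 between IVDS3 and the centre. The shares of all genes called with the block are not given here, so these counts too describe the fit. Centring each array moved the IVDS3 minus ES median of all genes by 0.06. Signal over background is not given by the deposited values, so a gene that was not called may have been too dim to measure.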

Other observations

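Over the 10 arrays, which include the differences between groups, the members whose profile was most like that of IFIT1 were IFIT3 (Pearson's r 0.999), IFI27 (0.993), IFIT2 (0.991), MX1 (0.986), ISG15 (0.979) and TRIM56 (0.975). The values describe these arrays and share their groups, so they carry no test. TRIM56, an antiviral ubiquitin ligase, stood above IFI16 (0.971) and CXCL10 (0.970) in this order although its own log2 fold change at IVDS3 was 0.95 ± 0.17.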
